A study of Mus with 8 samples.

Results

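Fast skeletal muscle genes encode the sarcomere, the calcium machinery and the energy enzymes of rapidly contracting fibres. Of 35 such genes looked for by symbol, 34 were found among the 14972 genes that carry a probeset with a single symbol. Xirp2, an actin-binding Xin repeat protein, was not found and is not analysed here. The genes found fell into 5 roles: 9 of the thick filament, 5 of the thin filament, 8 of the Z disc and titin, 6 of calcium handling and 6 of energy supply. The probeset with the highest mean log2 intensity over all 8 arrays stood for each gene.

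The samples were skin with hair follicles from male C57BL6 mice, 6 weeks old on arrival and 7 weeks old when used per the labels. Hair was removed from all mice and a solution was then applied to the skin for 20 days. The 4 groups received MilliQ water (called untreated here), 1% minoxidil as the positive control, 1% keratin, or 1% microsphere keratin. Minoxidil widens blood vessels and is applied to treat hair loss, while keratin forms the hair shaft itself. Each group had 5 mice and 2 arrays, numbered 1 and 2 in the labels, which do not say whether an array is 1 animal, a pool or a repeat. P-values therefore measure only the spread between arrays, which may be technical, and the number of arrays limits the precision.

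Mouse skin carries a thin sheet of striated muscle, the panniculus carnosus, below the dermis and its fat layer. In such fast fibres myosin heavy chains pull on actin filaments, troponin makes the pull depend on calcium, and the sarcoplasmic reticulum releases the calcium and pumps it back. Creatine kinase, glycogen phosphorylase and the glycolytic enzymes restore the ATP that is used. The labels do not say how deep the skin pieces were cut. In whole tissue, fewer muscle fibres and less muscle RNA per fibre cannot be told apart.

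The arrays were not of equal quality. Across all probesets, minoxidil array 1 had Pearson r of 0.390 to 0.475 with the others, and any pair of the remaining 7 had 0.886 to 0.988. The beta-actin control at the 3′ end read 47.2 in it, 656 in untreated array 1 and 1448 to 1883 in the other 6. BioB, a bacterial transcript added as a hybridisation control, was high in untreated array 1 (738) and minoxidil array 1 (429), against 91.3 to 208 elsewhere. Ribosomal 18S RNA read 1411 in untreated array 1 and at most 544 elsewhere. The comparisons and the ranges between arrays are therefore also given without these 2 arrays. Array medians over all probesets were 35.9 to 37.7.

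Muscle genes differed far more between the arrays than most genes did, and the 2 arrays of a group often lay further apart than the groups. The median intensity of the 34 genes was 120 in untreated array 1 and 704 in untreated array 2. It was 33.5 and 747 in minoxidil arrays 1 and 2. It was 216 and 765 in keratin arrays 1 and 2. It was 532 and 338 in microsphere keratin arrays 1 and 2. The number 2 array was thus the higher one in 3 groups and the lower one in the microsphere keratin group.

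**Figure D1:**
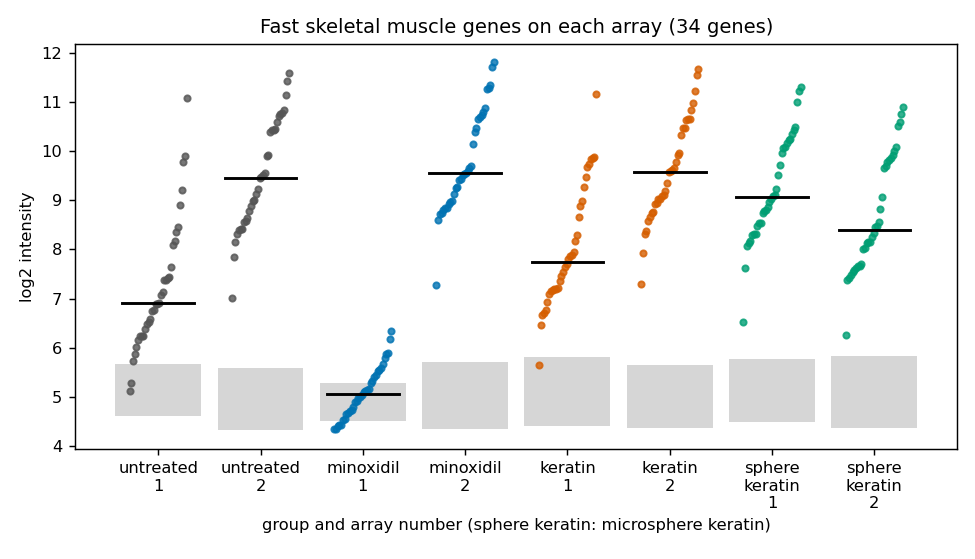
Intensity of the 34 fast muscle genes on each of the 8 arrays, on a log2 scale (y axis), with groups and array numbers on the x axis. Points are genes in rising order, black bars are medians, and grey bands span the 23 nonspecific control probesets of the array. All genes of untreated array 2 lie above its band, while 21 of 34 in minoxidil array 1 lie at or below the top of its band.

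Minoxidil array 1 held almost no muscle signal in the kept probesets. Its 34 values ran from 20.3 for Atp2a1 to 80.6 for Ttn. The array's 23 nonspecific control probesets, which have no intended target, read 23.0 to 38.9, and 21 of the 34 genes were at or below the highest of these. With the kept probesets all 34 genes were lowest in this array. Another Myom2 probeset read 96.1 in untreated array 1, 135 in keratin array 1 and 141 in minoxidil array 1. For genes at the background there, differences that involve this array are compressed. In the other 7 arrays at most 2 genes, in untreated array 1, were at or below the highest nonspecific control.

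Over those 7 arrays the order was nearly the same for every role. Untreated array 1 was lowest for 31 of 34 genes, the exceptions being Myh1, Ttn and Trdn. Keratin array 1 was second lowest for 31, with the same 3 exceptions, and microsphere keratin array 2 was the next lowest for 32. Minoxidil array 2 was the highest for 19 genes and keratin array 2 for 12. The highest and lowest of the 7 arrays were at least 4-fold apart for 28 genes and at least 8-fold for 14, with a median range of 2.81 on the log2 scale. Over all 11229 genes tested the median range was 0.48. When untreated array 1 was left out too, which was decided once the values had been seen, the median range was 1.99 for the 34 genes and 0.33 for all genes. Over these 6 arrays 15 genes were at least 4-fold apart and 0 at least 8-fold, and keratin array 1 was lowest for 32. The members were listed as genes of fast muscle, but with earlier results of these data known, so their larger range is a description. A probeset is named only if it passed a fold threshold in the authors' tables, for members and other genes alike.

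**Figure D2:**
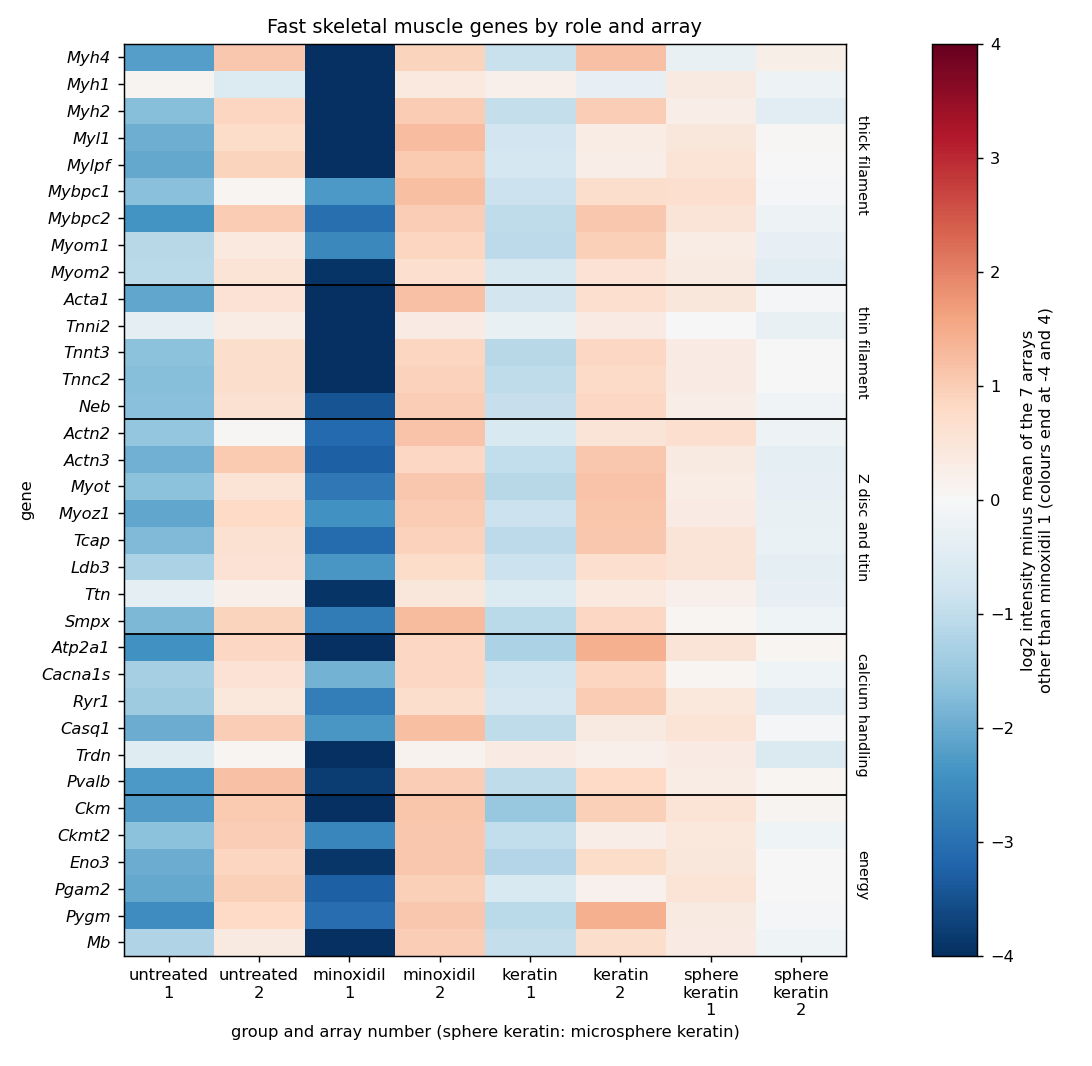
Each of the 34 genes (rows, grouped by role) on each array (columns), as log2 intensity minus the gene's mean over the 7 arrays other than minoxidil array 1. Blue is lower and red is higher. Untreated array 1 and keratin array 1 are blue for nearly all genes, and the rows of Myh1, Tnni2, Ttn and Trdn are paler than the rest.

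Among the thick filament genes, myosin heavy chains differed from each other in their array order. Myh4, the fastest isoform (type 2B), read 288 and 2756 in untreated arrays 1 and 2, and 34.7 and 2468 in minoxidil arrays 1 and 2. It read 706 and 2996 in keratin arrays 1 and 2, and 1084 and 1538 in microsphere keratin arrays 1 and 2. Myh4 was the only gene of the 34 that was higher in the number 2 array of all 4 groups. Of all genes tested, 34.1% were.

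Myh1, the type 2X heavy chain, ran the other way. It read 2146 and 1369 in untreated arrays 1 and 2, 2273 and 1596 in keratin arrays 1 and 2, and 2537 and 1718 in microsphere keratin arrays 1 and 2. In minoxidil arrays 1 and 2 it read 73.0 and 2600. Outside minoxidil its number 1 array was thus the higher one in each group, and its range over 7 arrays was 1.90-fold. A further Myh1 probeset gave 1999 and 1102 in untreated arrays 1 and 2, and 1816 and 1321 in keratin arrays 1 and 2, so both probesets were higher in array 1 of each pair. Myh2, the type 2A heavy chain of fast oxidative fibres, read 119 and 703 in untreated arrays 1 and 2 and 200 and 761 in keratin arrays 1 and 2, in the order of Myh4. Its microsphere keratin arrays read 465 and 284.

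From untreated array 1 to untreated array 2, Myh4 differed by 3.26 on the log2 scale and Myh1 by -0.65. From keratin array 1 to keratin array 2, the same differences were 2.08 and -0.51. These are differences within 1 pair of arrays, with no test. The 3 heavy chain genes lie side by side in the RefSeq gene table, with 0 protein-coding genes between neighbours, and their sequences are close enough that probes can be shared. The kept Myh1 probeset carries the suffix _x_at, which marks probes that may bind other transcripts. A probeset assigned to both Myh1 and Myh4 was dim, at 31.5 to 40.0 on all arrays, and was not used.

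**Figure D3:**
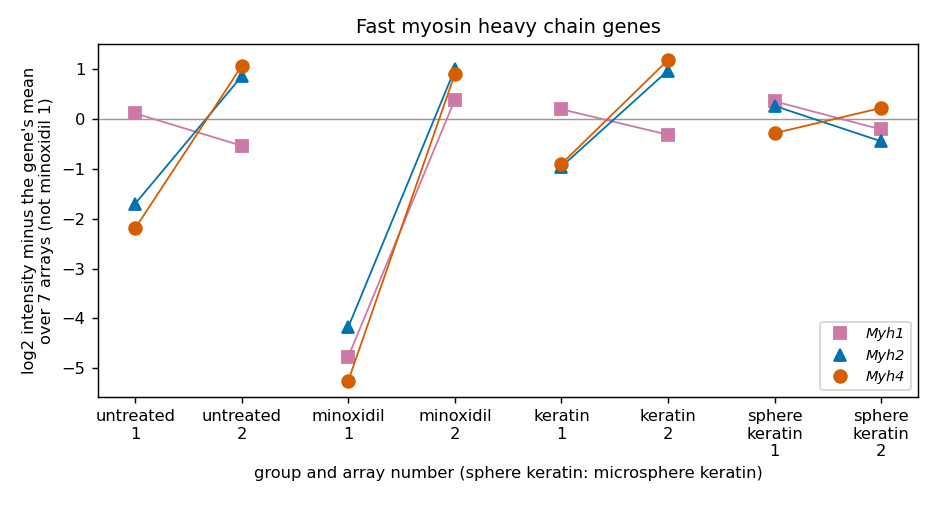
The 3 fast myosin heavy chain genes on each array, as log2 intensity minus the gene's own mean over the 7 arrays other than minoxidil array 1, with lines joining the arrays of a group. In the untreated and keratin groups Myh4 and Myh2 are higher in array 2 than in array 1, while Myh1 differs by -0.65 and -0.51.

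In the untreated and keratin groups the remaining thick filament genes followed Myh4 and Myh2 rather than Myh1. With microsphere keratin they were lower in array 2, as were Myh2 (log2 difference -0.71) and Myh1 (-0.56), while Myh4 was higher (0.51). Myl1 and Mylpf, the essential and regulatory light chains of fast myosin, ranged 9.09-fold and 8.48-fold over the 7 arrays, and 3.99-fold and 3.33-fold without untreated array 1. Mybpc2, fast myosin binding protein C, ranged 11.2-fold with that array and 4.29-fold without it. Its slow-type relative Mybpc1 ranged 7.39-fold and 4.21-fold. Myom1 and Myom2, which link thick filaments in the M band, ranged 4.14-fold and 3.35-fold with it, and 4.03-fold and 2.49-fold without. The kept Myom2 probeset also carries the suffix _x_at. The probesets of Mybpc1 disagreed. From keratin array 1 to keratin array 2 its log2 difference was 1.57 with the kept one, and -0.22 and -0.09 with the others. From untreated array 1 to untreated array 2 it was 1.76 with the kept one, and 0.86 and 0.74 with the others.

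Thin filament genes had the same order. Acta1, skeletal alpha-actin, read 353 and 2254 in untreated arrays 1 and 2, 31.4 and 3353 in minoxidil arrays 1 and 2, 909 and 2369 in keratin arrays 1 and 2, and 2054 and 1453 in microsphere keratin arrays 1 and 2. Tnnc2, the calcium-binding subunit of fast troponin, read 588 and 3091, 40.4 and 3564, 936 and 3243, and 2366 and 1914 in the same order. For both genes untreated array 1 was the lowest of the 7 and minoxidil array 2 the highest. Tnnt3, the fast troponin subunit that binds tropomyosin, ranged 5.67-fold and nebulin, Neb, 6.39-fold. Without untreated array 1 these ranges were 3.97-fold and 3.73-fold.

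Tnni2, the inhibitory subunit of fast troponin, looked flatter, and its probesets disagreed. The kept probeset, also of the _x_at kind, read 872 in untreated array 1 and 1391 in untreated array 2, and ranged 1.63-fold over the 7 arrays. Another probeset, with a lower mean log2 level over the 8 arrays, read 241 and 1800 in these arrays. The last of its 3 probesets read 73.1 to 122 over all 8 arrays. The log2 difference between untreated arrays was 0.67 with the kept probeset and 2.90 with the other, close to the 2.39 of Tnnc2.

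Of the Z disc and titin genes, Actn3, the alpha-actinin of fast fibres, read 121 and 947 in untreated arrays 1 and 2, 48.5 and 829 with minoxidil, 233 and 972 with keratin, and 597 and 352 with microsphere keratin, arrays 1 and 2 each. Titin, the elastic filament that spans the sarcomere, was flatter: Ttn read 953 and 1382, 80.6 and 1661, 821 and 1602, and 1380 and 964 in the same order. Its 4 probesets disagreed. The log2 difference between untreated arrays was 0.54 with the kept one, and 1.92, 1.08 and -0.29 with the others. Myot, Myoz1, Tcap, Actn2, Ldb3 and Smpx, all proteins of the Z disc or the nearby membrane attachment, ranged 3.94-fold to 9.20-fold over the 7 arrays, and 2.96-fold to 5.02-fold without untreated array 1.

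Calcium-handling genes included the member with the largest spread over all 8 arrays. Atp2a1, the calcium pump SERCA1 of fast fibres, read 141 and 1346 in untreated arrays 1 and 2, 20.3 and 1339 in minoxidil arrays 1 and 2, 312 and 2013 in keratin arrays 1 and 2, and 1068 and 802 in microsphere keratin arrays 1 and 2. Pvalb, the soluble calcium buffer parvalbumin, read 166 and 1830, 58.9 and 1617, 405 and 1423, and 998 and 872 in the same order. Both genes put untreated array 1 far below the other arrays except minoxidil array 1. Cacna1s, the voltage sensor of the transverse tubule, had the smallest SD of all members over the 8 arrays, 1.02 on the log2 scale. Over the 7 arrays other than minoxidil array 1 its SD was 0.83, and other members were flatter, such as Tnni2 at 0.32. Cacna1s read 34.7 and 129 in untreated arrays 1 and 2, and 23.6 and 155 in minoxidil arrays 1 and 2. It read 50.4 and 158 in keratin arrays 1 and 2, and 92.0 and 76.8 in microsphere keratin arrays 1 and 2. Its lowest values lie at the nonspecific controls, so its differences are compressed. Ryr1, the calcium release channel, ranged 5.40-fold and the calcium store protein Casq1 9.02-fold, or 3.24-fold and 4.65-fold without untreated array 1.

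Trdn, which anchors calsequestrin at the release channel, was again flatter. It read 481 and 706 in untreated arrays 1 and 2 and 857 and 784 in keratin arrays 1 and 2, the highest of its 8 values being in keratin array 1. Its 4 probesets gave log2 differences of 0.55, 0.84, 0.69 and 0.36 between the untreated arrays. All 4 were thus below the 2.39 of Tnnc2.

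Energy genes had a mean log2 level of 6.63 in untreated array 1 and 9.40 in untreated array 2. Ckm, the cytosolic creatine kinase, read 171 and 1719 in untreated arrays 1 and 2, 34.2 and 1774 in minoxidil arrays 1 and 2, 289 and 1589 in keratin arrays 1 and 2, and 1199 and 898 in microsphere keratin arrays 1 and 2. Eno3, the muscle enolase, read 135 and 963, 35.9 and 1123, 237 and 876, and 727 and 535 in the same order. Pygm, glycogen phosphorylase, read 39.0 in untreated array 1, at or below the highest nonspecific control there (50.7), so its fold from that array is not given. It ranged 5.62-fold over the other 6 arrays. Ckmt2, the mitochondrial creatine kinase, Pgam2, a phosphoglycerate mutase, and Mb, myoglobin, ranged 6.62-fold, 7.98-fold and 4.63-fold over 7 arrays, and 4.20-fold, 2.97-fold and 3.89-fold without untreated array 1.

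The minoxidil comparison asked how muscle genes differed between minoxidil-treated and untreated skin, and the 2 pairs of arrays answered it differently. In the number 1 pair all 34 genes were lower with minoxidil, with a median log2 difference of -1.67. In the number 2 pair 28 were higher and 6 lower, with a median log2 difference of 0.21. Myh4, Mybpc2, Actn3, Atp2a1, Pvalb and Pgam2 were the 6. Of all genes, 41.4% were higher with minoxidil in the first pair and 60.5% in the other. For Acta1 the log2 level was 9.80 ± 1.89 (SD, n = 2) in untreated skin, and after minoxidil it was 8.34 ± 4.76 (SD, n = 2). With both arrays the median difference of the 34 genes was -0.80, and that of all genes -0.02.

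No muscle gene passed the limma test for minoxidil, at a Benjamini-Hochberg adjusted p of 1.00 for all 34. The test called 0.00% of 11229 genes, and 50 genes had an unadjusted p below 0.05, none of them a muscle gene. None of the 34 genes had minoxidil arrays both above or both below the untreated arrays, against 7.52% of all genes above and 4.35% below. Without minoxidil array 1 the median difference turned to 1.49, and without untreated array 1 as well it was 0.21. Without minoxidil array 2 the fit called 10 of the 34 genes lower, among 859 genes in all, with minoxidil array 1 then the only array of its group.

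The keratin comparison asked the same for keratin. In the number 1 pair 33 of 34 genes were higher with keratin, by a median log2 difference of 0.77, Ttn being the exception. In the number 2 pair 25 were higher and 9 lower, with a median of 0.12. Of all genes, 79.2% were higher with keratin in the first pair and 54.3% in the other. The largest number 1 difference was that of Pgam2, at 1.43, and the same gene had the lowest value of the number 2 pair, -0.78. For Ckm the log2 level was 9.08 ± 2.36 (SD, n = 2) in untreated skin, and after keratin it was 9.40 ± 1.74 (SD, n = 2), a difference smaller than the spread between arrays. Over both pairs the median difference was 0.39, and that of all genes was 0.10.

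No muscle gene passed in the keratin comparison (limma, adjusted p of 1.00 for all 34), where 0.00% of all genes were called and 46 had an unadjusted p below 0.05. Trdn alone among the 34 was higher in each keratin array than in either untreated array, against 20.0% of all genes. None was lower in each, against 5.23%. The median turned to -0.67 without untreated array 1, and to -0.43 without keratin array 2. It was 1.66 without untreated array 2 and 1.29 without keratin array 1.

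The microsphere keratin comparison gave opposite pairs. In the number 1 pair all 34 genes were higher with microsphere keratin than in untreated skin, with a median log2 difference of 2.03. In the number 2 pair 33 of 34 were lower, with a median of -0.85, and Myh1 was the exception at 0.33 higher. Atp2a1 differed by 2.93 in the first pair and by -0.75 in the other. Actn3 differed by 2.30 and -1.43. Among all genes, 73.6% were higher with microsphere keratin in the first pair, and 55.3% in the other. The microsphere keratin arrays themselves lay closer together than those of other groups: Tnnc2 had a log2 level of 11.06 ± 0.22 (SD, n = 2) with microsphere keratin and 10.40 ± 1.69 (SD, n = 2) in untreated skin.

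No muscle gene passed this test either (limma, adjusted p of 1.00 for all 34), with 0.00% of all genes called and 10 at an unadjusted p below 0.05. All 34 genes overlapped between the groups, while 14.6% of all genes had both microsphere arrays above and 5.24% both below. The median difference of 0.62 over both pairs turned to -0.55 without untreated array 1. The 3 treatment comparisons share the untreated arrays, so a low untreated array 1 enters each of them.

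**Figure D4:**
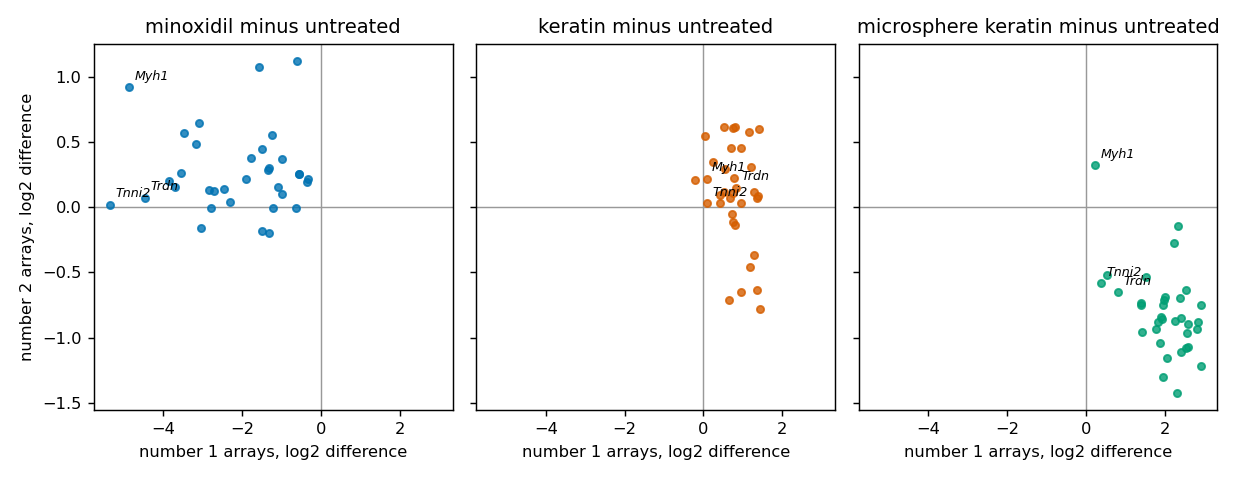
Log2 difference from untreated skin for the 34 genes, in the number 1 arrays (x axis) and the number 2 arrays (y axis), with 1 panel per treatment. Points at right of the vertical line were higher in the number 1 pair and points above the horizontal line in the number 2 pair. Microsphere keratin has 34 points at right and 33 below, and minoxidil has 34 at left and 28 above.

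Microsphere keratin was also set against plain keratin at the same 1%. In the number 1 pair 33 of 34 genes were higher with microsphere keratin, by a median of 1.28, with Trdn the exception at -0.02. In the number 2 pair 33 were lower, with a median of -0.86, with Myh1 the exception at 0.11. Ckm differed by 2.05 and -0.82 in these pairs. Of all genes, 42.6% were higher with microsphere keratin in the first pair and 51.0% in the other. No muscle gene passed (limma, adjusted p of 1.00 for all 34). Of all genes 0.00% were called, 14 had an unadjusted p below 0.05, 5.09% had both microsphere arrays above and 10.5% both below, and all 34 muscle genes overlapped. The median of 0.12 over both pairs turned to -0.61 without keratin array 1 and to -0.13 without microsphere keratin array 1.

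The array number was then tested with treatment in the model. All 34 genes had a positive estimate for number 2 minus number 1, with a median of 1.97 on the log2 scale, while the median of all genes was 0.19 and 74.5% of them had a positive estimate. By group the median differences were 2.48 in untreated skin, 4.41 with minoxidil, 1.72 with keratin and -0.54 with microsphere keratin. In the last group 33 of 34 genes were lower in array 2, where 60.3% of all genes were higher. The estimate of Myh1, 0.86, was positive through minoxidil alone (5.16). Its differences were -0.65 in untreated skin, -0.51 with keratin and -0.56 with microsphere keratin. Trdn was lower in array 2 with keratin (-0.13) and microsphere keratin (-0.91). No muscle gene passed at 0.05, and limma called 0.00% of all genes. The lowest adjusted p was 0.0871, for Cacna1s, with a difference of 1.50 ± 0.42 (SE) that was positive in 3 of 4 groups. Of the muscle genes, 14 of 34 had an unadjusted p below 0.05, and of all genes 28.6% had. Without minoxidil array 1 the median was 1.20 and 1 muscle gene passed, Myh4 (limma, adjusted p = 0.0477), among 364 genes. Without untreated array 1 as well it was 0.63 and none of them passed, with 314 genes called.

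Other muscle genes gave the same array order where they were bright. Among all genes tested, 80.7% were higher in untreated array 2 than in untreated array 1. With microsphere keratin 60.3% were higher in array 2 than in array 1. Of 29 further sarcomere and muscle structure genes, 29 were higher in untreated array 2 than in array 1, by a median of 1.17, and 28 were lower in microsphere keratin array 2 than in array 1, with a median of -0.56. Tpm1 and Tpm2, the tropomyosins that cover the actin filament, read 185 and 191 in untreated array 1 and 1452 and 1092 in untreated array 2. Of 19 further muscle energy genes, 19 were higher in untreated array 2, by a median of 1.62. Aldoa, a glycolytic aldolase, read 870 and 2176 in these arrays. None of these genes passed any of the 5 comparisons.

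Of 12 slow muscle isoforms looked for, 10 were found, and their mean log2 level was 5.42 in untreated array 1 and 5.77 in untreated array 2. All 6 that were tested had a positive estimate for the array number, with a median of 0.44, and none passed (limma, Benjamini-Hochberg). Of all genes tested, 74.5% had a positive estimate. Tpm3, a tropomyosin of slow fibres, read 126 and 213 in untreated arrays 1 and 2. Atp2a2, a calcium pump of slow fibres and heart, read 58.8 and 144 in these arrays. Myoz2, the myozenin of slow fibres and heart, read 41.8 and 71.9 in these arrays and 143 in minoxidil array 2. Tpm3 ran against the muscle order in keratin arrays 1 and 2 (261 and 209) and microsphere keratin arrays 1 and 2 (200 and 249). Atp2a2 followed it with keratin (92.3 and 110) but not with microsphere keratin (82.3 and 150). Myoz2 followed it in both, at 51.4 and 102 with keratin and 87.3 and 67.5 with microsphere keratin. Whole skin does not show whether the Tpm3 and Atp2a2 signals came from slow fibres or from other cells. Developmental isoforms had means of 5.44 to 5.71 over all 8 arrays, and Myh8, the perinatal myosin heavy chain, read 69.7 to 91.4. Cardiac markers stayed at 5.00 to 5.18, near the nonspecific controls.

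Markers of other skin cells were read beside the muscle genes. Smooth muscle markers had means of 6.03 and 6.37 in untreated arrays 1 and 2, and 6.55 and 6.42 in keratin arrays 1 and 2. Only 6 of 9 were found. Acta2, the smooth muscle actin, was higher in the number 1 arrays outside minoxidil, at 326 and 211 in untreated skin and 529 and 231 with keratin. Synpo2, an actin-binding protein, ran in the muscle order, at 77.5 and 282 in untreated skin, 95.5 and 290 with keratin, and 320 and 197 with microsphere keratin. In untreated skin 4 of 6 smooth muscle markers were higher in array 2. Fibroblast markers had means of 7.76 and 7.34 in untreated arrays 1 and 2, 8.63 and 7.59 with keratin, and 8.76 and 7.74 with microsphere keratin. Adipocyte markers had means of 6.83 and 6.60 in untreated arrays and 7.22 and 6.64 with keratin. Fibroblast and adipocyte means were thus higher in array 1 of the untreated and keratin groups, against the order of the muscle genes. With microsphere keratin the fibroblast means ran with the muscle genes, higher in array 1. Adipocyte means did so too, at 6.85 and 6.34 in microsphere keratin arrays 1 and 2. Keratinocyte markers followed the muscle order in untreated and keratin skin, with 5 of 6 higher in array 2 of each group and median log2 differences of 0.71 and 0.29. Their means were 7.09 and 7.64 in untreated arrays 1 and 2 and 7.65 and 7.78 in keratin arrays 1 and 2. All 5 Schwann cell markers were also higher in untreated array 2, by a median of 0.43. Of all genes tested, 80.7% were higher in untreated array 2 and 61.2% in keratin array 2. In minoxidil array 1 fibroblast, adipocyte and keratinocyte lists were at 5.79, 5.10 and 5.91, the lowest of the 8 arrays in each case. The part of tissue makeup or RNA quality in the muscle differences was not tested.

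**Figure D5:**
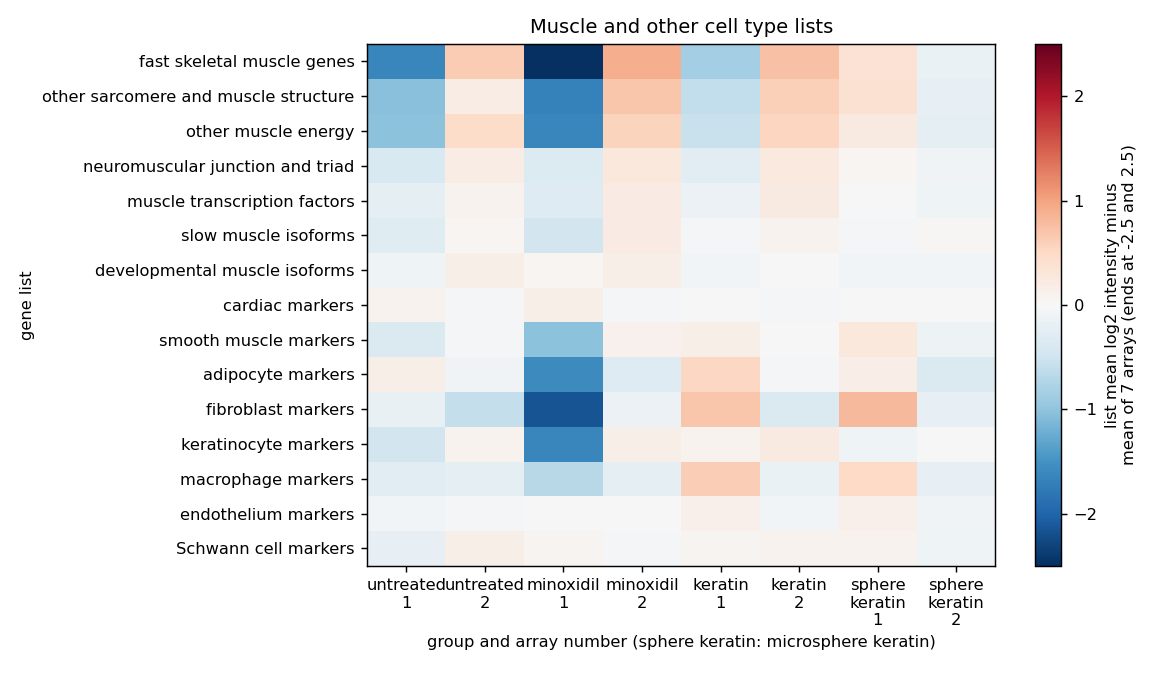
Mean log2 intensity of the fast muscle genes and of 14 other gene lists (rows) on each array (columns), minus the list's mean over the 7 arrays other than minoxidil array 1. The 3 upper rows, fast muscle, other sarcomere and other muscle energy genes, are blue in untreated array 1 and keratin array 1, where fibroblast means were 7.76 and 8.63.

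The Gapdh controls followed the muscle genes. Gapdh, a glycolytic enzyme used as an array control, read 298 and 1362 at its 3′ probeset in untreated arrays 1 and 2, 630 and 1465 in keratin arrays 1 and 2, and 1273 and 1006 in microsphere keratin arrays 1 and 2. The 3′ beta-actin control was also lower in untreated array 1 than in array 2, at 656 and 1608. It did not separate the keratin arrays in this way, at 1589 and 1613, and was 1448 and 1679 with microsphere keratin. The 5′ beta-actin probeset read 137 and 301 in untreated arrays 1 and 2, 554 and 419 with keratin, and 524 and 256 with microsphere keratin.

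The 10 other genes most like the mean of the 34 over the 7 arrays had Pearson r of 0.993 to 0.996, given as a description. They were Ldha, Apoo, Atp5a1, Uqcrc1, Slc25a4, Srl, Ak1, Pgk1, Tmod4 and Rps6ka2. Ldha, Ak1 and Pgk1 are energy enzymes. Atp5a1, Uqcrc1, Slc25a4 and Apoo encode mitochondrial proteins, Srl is a calcium-binding protein of the sarcoplasmic reticulum and Tmod4 caps thin filaments. Slc25a4, the ADP/ATP carrier, read 196 and 1304 in untreated arrays 1 and 2, 363 and 1202 in keratin arrays 1 and 2, and 953 and 759 in microsphere keratin arrays 1 and 2. Each member was also set against the mean of the other 33. Its r was above 0.90 for 31, and 0.87 for Ttn, 0.48 for Trdn and -0.21 for Myh1. Without untreated array 1 it was above 0.90 for 28, and 0.98 for Ttn, 0.09 for Trdn and -0.16 for Myh1. The 7 points fall into 4 treatment groups and share their array scaling.

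The authors' deposited tables list the same genes on another scale. In the authors' deposited table for microsphere keratin 1 against control 1, 30 of the 34 probesets were listed, all higher, with a median fold of 30.0, while the same pair of arrays in the value table gave a median of 4.09-fold over the 34 genes. Of all rows in that authors' deposited table, 89.5% were higher. In the authors' deposited table for keratin 1, 24 were listed, all higher, with a median fold of 12.1. In the authors' deposited table for microsphere keratin 2, 31 were listed, all lower, from 2.98-fold for Myh2 (listed as -2.98) to 1.40-fold for Mb (listed as -1.40). In the authors' deposited table for keratin 2, 10 of 15 listed were higher, and in that for minoxidil 2 all 8 listed were higher, up to 2.29-fold for Actn2. These tables keep only probesets past a fold of 2.00 or 1.30, and each rests on 1 array a side. The table named for minoxidil 1 has microsphere columns and contains each of the 9387 rows listed for microsphere keratin 1, so its fold changes were not used.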

How the data were processed

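RNA from skin with hair follicles was measured on 8 HT_MG-430_PM arrays, 2 in each of 4 groups. The authors deposited linear intensity values for 45141 probesets, and the submitters' processing notes name RMA, Affymetrix Expression Console and, besides these, Transcriptome Analysis Console. Per the file headers, the authors' 6 comparison tables hold log2 signals, a signed fold change (treated here as a score) and p-values, each from 1 array a side. Gene symbols came from those tables, with annotation release na36 per the file headers. They list only probesets past a fold threshold (28918 in all, 23804 with 1 symbol), so naming is not independent of the data. The genome build is not given in the sources used here.

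Here the intensities were log2 transformed without further normalization. Each gene kept its probeset of highest mean over 8 arrays, and genes above the 25th percentile were tested (11229, all 34 muscle genes among them). limma 3.58.1 in R 4.3.3 fitted the 4 groups together, with Benjamini-Hochberg adjustment at 0.05; the array number was tested with group in the model. An exact permutation of 2 arrays against 2 cannot go below p = 0.333, so none was used. On simulated data for keratin against untreated (11229 genes, 200 changed), the fit recovered 11.5% of genes changed 2-fold and 64.5% of those changed 4-fold. The changed genes were drawn at random from all tested genes. These rates therefore do not apply to the muscle genes, whose standard errors were 1.58 at the median. Differences between array 2 and array 1 correlated between groups at 0.112 to 0.594 over all genes, all 6 above 0.10. The labels do not say what the number stands for, so these values do not establish that the arrays are paired. The main treatment fits used no pairing, and differences between arrays of the same number are given as a description.

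Values in every array are given for the 2 members of highest mean log2 level in each role and for those of largest and smallest SD over 8 arrays. Of each other list up to 3 genes of highest mean are named, and the 10 genes most like the members. Further values, such as those of Myh2, Tnni2 and Trdn, were chosen after they were seen. The members and lists were chosen with earlier results of these data known.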

Additional observations from a re-analysis of the deposited data

Results flagged for a closer look

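The pairs of arrays with the same number gave opposite directions in 3 comparisons, and the difference between pairs was not tested, since each pair has 1 array a side. For minoxidil against untreated skin, the 34 muscle genes had a median log2 difference of -1.67 between arrays numbered 1 and of 0.21 between arrays numbered 2. For microsphere keratin against untreated skin these medians were 2.03 and -0.85. For microsphere keratin against keratin they were 1.28 and -0.86. The difference between array 2 and array 1 also changed direction by group, likewise untested. Its median was 2.48 in untreated skin, 4.41 with minoxidil and 1.72 with keratin, but -0.54 with microsphere keratin. Untreated array 1 and minoxidil array 1 also had the highest BioB control values, 738 and 429, and the lowest 3′ beta-actin values, 656 and 47.2. The Lys and Phe controls differed between them, at 741 and 1014 in untreated array 1 and 89.1 and 97.8 in minoxidil array 1. The part of these in the muscle differences was not tested.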

How the results depend on the processing

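The median differences of the 34 muscle genes depended on single arrays. For minoxidil (-0.80), leaving out 1 array gave -3.08 to 1.49. The median was positive without untreated array 2 (0.45), without minoxidil array 1 (1.49), without both minoxidil array 1 and untreated array 1 (0.21), and with the replicate block and minoxidil array 1 left out (0.87). Leaving out 1 array gave 0 to 859 genes called and 0 to 10 muscle genes, the higher counts without minoxidil array 2. For keratin (0.39) the range was -0.67 to 1.66, with -0.43 without keratin array 2 and 1.29 without keratin array 1. For microsphere keratin (0.62) it was -0.55 to 1.83. Leaving out both doubtful arrays gave -0.67 and -0.55. For microsphere keratin against keratin (0.12) it was -0.61 to 1.00, with -0.13 without microsphere keratin array 1. For the array number (1.97) it was 1.20 to 2.83, positive under each alternative run. Its count of 0 genes became 183 with probesets averaged, 962 with array weights, 456 with normexp and offset 50, 1319 at a threshold of 0.10, 314 without both doubtful arrays, 0 to 364 with 1 array left out and 1267 with no replicate block. Muscle genes called for the array number were 1 at 0.10, 0 to 1 with 1 array left out and 2 with no replicate block. The replicate block with all arrays called no muscle gene. It cannot change the treatment medians, since each group has 1 array of each number. The median range of the 34 genes, 2.81, was 1.99 without untreated array 1. Leaving out _x_at and _s_at probesets, chosen after seeing the data, gave medians of -0.73, 0.42, 0.65 and 0.18 for the treatment comparisons. With 1 array left in a group, that array is assumed to vary like the other groups. With 2 arrays a group and muscle gene standard errors of 1.58 at the median, only very large differences could pass.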

Other observations

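Genes of the neuromuscular junction and triad, where the transverse tubule meets the calcium store, had mean log2 levels of 5.27 to 5.91 over the 8 arrays, lowest in untreated array 1. Of 14 found, 12 were higher in untreated array 2 than in array 1, by a median log2 difference of 0.36. In microsphere keratin array 2, 12 were lower than in array 1. Of all genes tested, 80.7% were higher in untreated array 2 and 60.3% in microsphere keratin array 2. Jph1 and Jph2, the junctophilins that hold the triad together, read 50.9 and 44.9 in untreated array 1 and 140 and 118 in untreated array 2. Jsrp1, a protein of the junctional membrane, read 50.4 and 120 in these arrays. None of the 12 tested passed the limma test in any comparison.

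Of the muscle transcription factors, Mef2c, a factor that also acts outside skeletal muscle, read 62.2 and 143 in untreated arrays 1 and 2, and 150 and 87.7 in microsphere keratin arrays 1 and 2. Eya4 read 113 and 142 in the untreated arrays. All 13 factors found were higher in keratin array 2 than in keratin array 1, by a median of 0.30. Of all genes tested, 61.2% were. Schwann cell markers had mean log2 levels of 5.39 to 5.74 over the 8 arrays, and Mbp, a myelin protein, read 51.0 to 79.5. Endothelial markers had means of 5.33 to 5.53, and macrophage markers were at 6.69 in keratin array 1 and 5.92 in keratin array 2.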
